A study of Homo sapiens with 18 samples.

Results

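Long noncoding RNAs that stay largely in the nucleus were described probe set by probe set in SH-SY5Y cells exposed to cocaine. The members were 6 genes, MALAT1, NEAT1, TUG1, MEG3, KCNQ1OT1 and MIAT, with 46 of the 54675 probe sets of the array by its annotation. They were selected on measured values, because MALAT1 had stood out between 5 and 0 μM cocaine at 6 h, so the 6 h values of the members below are a description without P-values and the counts of calls at 6 h are no support for them, while the 24 h arrays had no part in the choice. SH-SY5Y is an established human neuroblastoma line of sympathetic origin. The cells were differentiated with 10 μM retinoic acid for 7 days, kept without it for 24 h, exposed for 30 min to 0, 1 or 5 μM cocaine and collected 6 or 24 h later. Each of these 6 conditions had 9 dishes and 3 arrays (Affymetrix U133 Plus 2.0), each array holding the pooled RNA of 3 dishes, so that 18 arrays were measured in all. Source labels of the 5 μM group read as untreated as well, and these arrays were assigned by the dose in their titles. One clonal line in pools of dishes was studied, so the spread between arrays is that between pools and not between individuals.

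MALAT1 is an abundant RNA of nuclear speckles, the nuclear bodies that store splicing factors, and its 3′ end is made by RNase P cleavage and protected by a triple helix instead of a poly(A) tail. NEAT1, its neighbour on the chromosome, is the scaffold of paraspeckles, bodies assembled around the RNA-binding proteins NONO, SFPQ and PSPC1. MIAT (also Gomafu) gathers in nuclear foci of its own in neurons and binds splicing regulators. TUG1 was first found in the developing mouse retina and has been linked to Polycomb repressors. MEG3 and KCNQ1OT1 are imprinted RNAs: MEG3 is expressed from the maternal chromosome beside DLK1, and KCNQ1OT1 is an antisense RNA of the paternal chromosome that silences neighbouring genes, among them the cell cycle inhibitor CDKN1C. Several of these RNAs have been studied in the brain in cocaine and heroin use, and cocaine is known to act on neurons in part through cyclic AMP and its response element.

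In RefSeq (GRCh38.p14) MALAT1 lies at chr11:65497738-65506516, NEAT1 at chr11:65422798-65445540, KCNQ1OT1 at chr11:2608328-2699994, MEG3 at chr14:100826108-100861026, MIAT at chr22:26646429-26676478 and TUG1 at chr22:30969265-30979395. All but TUG1, which RefSeq lists as protein coding, are listed as long noncoding RNAs. The RefSeq table used here gave 2 start windows for MALAT1, 3 overlapping ones for MEG3 and 1 each for TUG1 and MIAT, each of 300 bases with 250 of them before the start. The windows of MALAT1, the RNA with the widest dose differences, are printed with that of TUG1, which differed in the other direction at 6 h, and the first of MEG3, which holds a full cyclic AMP response element. All run 5′ to 3′ on the plus strand, and capitals mark matches to the motifs searched on both strands.
MALAT1, first start, chr11:65497488-65497787: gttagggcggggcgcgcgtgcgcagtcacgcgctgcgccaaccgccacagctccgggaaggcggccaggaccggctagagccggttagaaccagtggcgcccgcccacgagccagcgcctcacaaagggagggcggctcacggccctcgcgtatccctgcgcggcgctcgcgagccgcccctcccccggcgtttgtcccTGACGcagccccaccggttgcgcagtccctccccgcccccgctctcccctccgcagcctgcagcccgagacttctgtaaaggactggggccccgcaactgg
MALAT1, second start, chr11:65498795-65499094: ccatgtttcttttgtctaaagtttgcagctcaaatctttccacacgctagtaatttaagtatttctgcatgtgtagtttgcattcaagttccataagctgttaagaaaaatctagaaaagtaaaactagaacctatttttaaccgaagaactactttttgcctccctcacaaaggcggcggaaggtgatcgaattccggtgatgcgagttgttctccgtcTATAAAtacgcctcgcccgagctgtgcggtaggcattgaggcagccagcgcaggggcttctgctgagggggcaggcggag
TUG1, chr22:30969015-30969314: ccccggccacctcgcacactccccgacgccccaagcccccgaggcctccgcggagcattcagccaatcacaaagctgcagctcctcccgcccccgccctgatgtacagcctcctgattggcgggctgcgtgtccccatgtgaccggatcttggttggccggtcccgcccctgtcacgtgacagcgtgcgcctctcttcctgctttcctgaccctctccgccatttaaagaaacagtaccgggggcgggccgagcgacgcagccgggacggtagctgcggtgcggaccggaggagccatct
MEG3, first start, chr14:100825858-100826157: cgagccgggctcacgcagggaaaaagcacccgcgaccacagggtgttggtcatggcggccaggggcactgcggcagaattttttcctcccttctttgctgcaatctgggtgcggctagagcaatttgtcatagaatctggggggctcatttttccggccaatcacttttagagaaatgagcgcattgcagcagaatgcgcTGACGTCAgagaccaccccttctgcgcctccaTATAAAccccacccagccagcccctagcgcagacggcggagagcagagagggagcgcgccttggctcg
The motifs were the cyclic AMP response element TGACGTCA, its shorter core TGACG (which the full element contains on both strands), the TATA box TATAAA and the nuclear receptor motif AGGTCA. The first MALAT1 window held TGACG, beginning 51 bases before the start, and the second held TATAAA 30 bases before the start. The MEG3 window held TGACGTCA 50 bases and TATAAA 18 bases before the start. None of the 4 motifs was found in the TUG1 and MIAT windows, and AGGTCA was found in none of the 7 windows of the members. Of 35116 promoter windows of this length in the table, 1.85% held TGACGTCA, 24.6% TGACG, 11.5% TATAAA and 13.8% AGGTCA. A match is a description of the letters only.

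Of the measured markers, 12 of 13 of sympathetic neuroblastoma, 1 of 6 glial, 5 of 6 fibroblast and 0 of 3 leukocyte markers were above the signal filter. The exception among the neuroblastoma markers was TH, the first enzyme of catecholamine synthesis, at 3.35 to 4 log2 units. The study assessed TH as protein by Western blot, which is a different measure from the RNA signal here. Among fibroblast markers COL3A1 was at 9.41 to 11.34 log2 units on the 18 arrays. Several arrays stood apart. CYP26A1, the retinoic acid degrading enzyme that retinoic acid induces, was at 10.69 and 10.99 log2 units on untreated arrays 2 and 3 of 6 h and at 9.55 on untreated array 3 of 24 h, against 4.92 to 6.31 on the other arrays. Differences between 5 and 0 μM at 6 h are also given without arrays 2 and 3, which leaves 1 untreated array. Those between 1 and 0 μM are given without these arrays only for NEAT1, MIAT and TUG1, in a fit that pairs the arrays by number. The log2 difference between the 3′ and 5′ probe sets of actin (ACTB), a sign of RNA integrity, was 0.493 to 0.539 in 5 μM and 0.548 to 1.12 in untreated arrays at 6 h, and 0.686 to 1.03 and 0.488 to 0.654 at 24 h. The difference between 2 control transcripts of the hybridization mix (BioD minus Cre) was -1.55 to -1.37 log2 units in 5 μM, -1.44 to -1.41 in 1 μM and -1.04 to -0.929 in untreated arrays at 6 h. Both cocaine doses were thus apart from the untreated arrays, where this technical difference and the exposure cannot be told apart, while the 1 μM values lay inside the range of 5 μM. In these bulk samples fewer cells with an RNA and less of it per cell cannot be told apart either.

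Testing at 6 or 24 h was limited to probe sets with an average signal over log2(40), or 5.32, on the 9 arrays concerned. That held for 25 of the 46 member probe sets at 6 h (MALAT1 12 of 12, NEAT1 5 of 9, TUG1 4 of 6, MIAT 3 of 4, MEG3 1 of 10 and KCNQ1OT1 0 of 5) and for 27 at 24 h, where 2 of KCNQ1OT1 were added. The 21 member probe sets below the filter at 6 h lay between 3.02 and 5.15 log2 units on the 9 arrays. Signals of different probe sets are not compared, since each has its own affinity. All 9 NEAT1 probe sets are annotated to NEAT1 together with MIR612, a microRNA gene inside it at chr11:65444458-65444557, and 220983_s_at, below the filter, cites a transcript that RefSeq gives to SPRY4. A suffix _x_at marks probe sets with probes similar to other sequences, and _s_at those shared by several transcripts; of the MALAT1 probe sets 7 are _x_at, 4 _s_at and 1 _at. The place of each probe set along its RNA was not analysed here.

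At 6 h after 5 μM cocaine the MALAT1 probe sets split: 9 of 12 were above untreated cells by 0.48 to 1.29 log2 units, 2 were within 0.09 and 1 was lower by 0.74. The widest difference was that of 224568_x_at, with 10.14, 10.22 and 10.02 log2 units on the 3 untreated arrays, 10.57, 10.84 and 9.99 at 1 μM and 11.34, 11.51 and 11.41 at 5 μM. All 3 arrays of 5 μM were above the other 6, a difference from untreated cells of 1.29 ± 0.184 log2 units (SE of the fit, n = 3 arrays a dose) or 2.45-fold. Probe set 223578_x_at gave 7.19, 7.33 and 7.09 log2 units untreated, 7.61, 7.89 and 7.35 at 1 μM and 8.32, 8.43 and 8.28 at 5 μM. Here the 3 doses did not overlap, and 5 μM was 2.21-fold above untreated cells (1.14 ± 0.128 log2 units).

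Probe set 227510_x_at gave 5.44, 5.42 and 5.57 untreated, 5.87, 6.09 and 5.50 at 1 μM and 6.59, 6.59 and 6.65 at 5 μM in log2 units, a 2.2-fold difference between 5 and 0 μM. Probe set 223940_x_at gave 11.08, 11.24 and 11.05 untreated, 11.23, 11.68 and 10.81 at 1 μM and 12.09, 12.18 and 12.14 at 5 μM, a 2.02-fold difference. In these 4 probe sets the same-numbered pairs of arrays were alike, with 5 minus 0 μM between 0.95 and 1.39 log2 units in each of the 12 pairs. Smaller differences without overlap were found for 231735_s_at (0.56 ± 0.0682), 1558678_s_at (0.48 ± 0.144) and 223577_x_at (0.48 ± 0.0896). For 231735_s_at the 3 arrays of 5 μM gave 8.35, 8.34 and 8.34 log2 units, against 7.67, 7.89 and 7.80 on the untreated arrays.

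**Figure D1:**
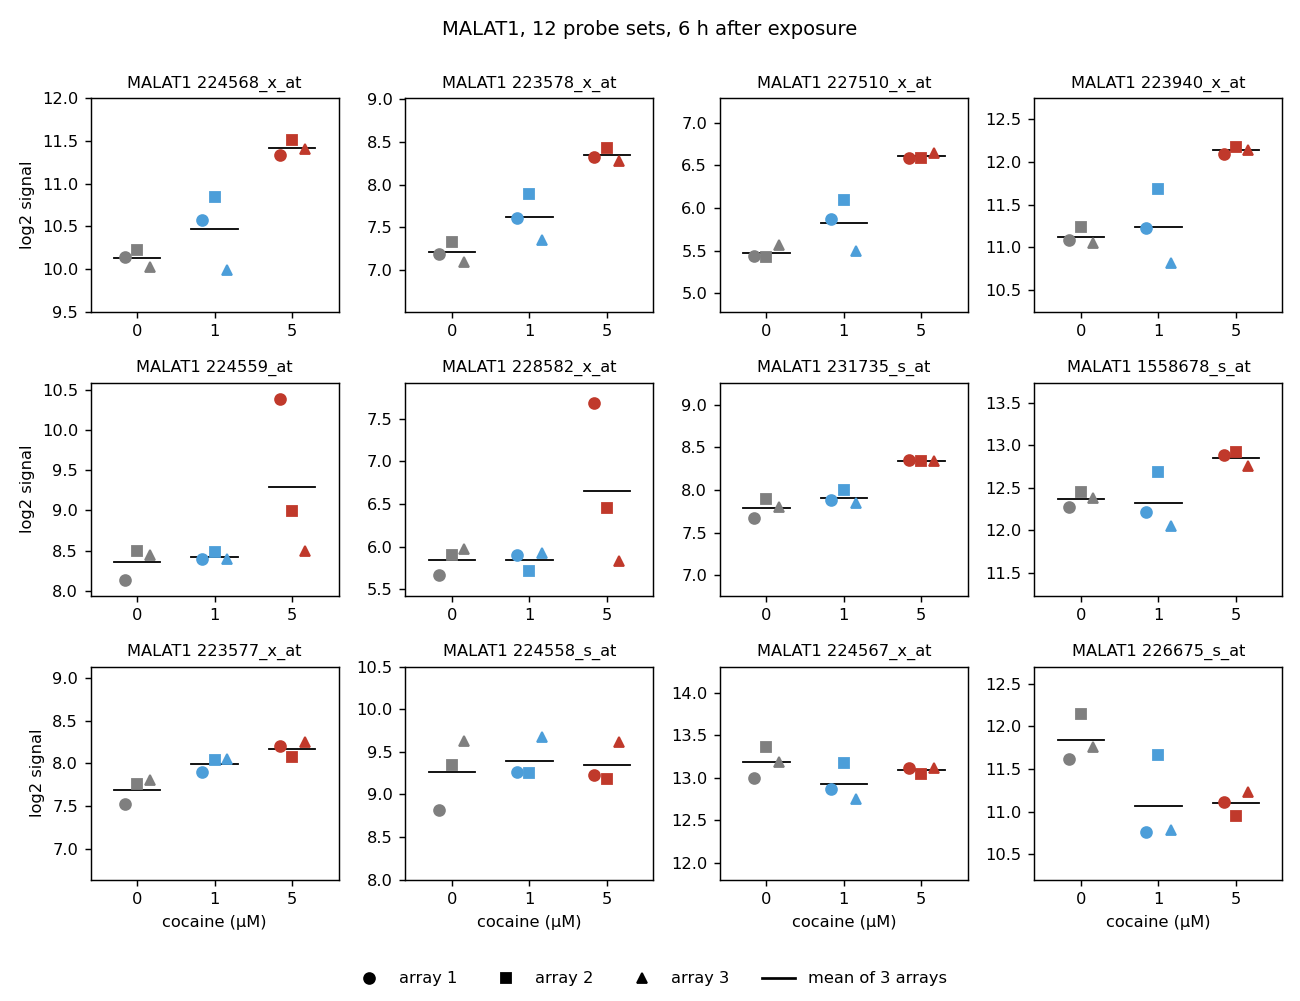
Signal of the 12 MALAT1 probe sets on the 9 arrays of 6 h (log2, vertical axis, with a range of its own in each panel) against the cocaine dose; symbols are arrays 1 to 3 and lines the mean of 3 arrays. In 224568_x_at, 223578_x_at, 227510_x_at and 223940_x_at all 3 arrays of 5 μM lie above the other 6, while 224567_x_at and 224558_s_at overlap and 226675_s_at is lower at 1 and 5 μM than untreated.

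For other MALAT1 probe sets a single array carried the difference. Probe set 224559_at gave 8.14, 8.50 and 8.44 log2 units untreated, 8.39, 8.48 and 8.39 at 1 μM and 10.39, 8.99 and 8.50 at 5 μM. Its mean difference of 0.93 ± 0.396 rested on 5 μM array 1, and was 0.38 without it. Probe set 228582_x_at had 7.68, 6.45 and 5.83 at 5 μM and 5.67, 5.90 and 5.97 untreated, a difference of 0.80 ± 0.381 that was 0.29 without array 1.

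The remaining 3 MALAT1 probe sets were not above untreated cells by more than their error. Probe set 224567_x_at gave 13.11, 13.05 and 13.12 log2 units at 5 μM, against 13.00, 13.36 and 13.19 untreated, a difference of -0.09 ± 0.122. Probe set 224558_s_at differed by 0.08 ± 0.214, and by 0.52 without untreated arrays 2 and 3. In 226675_s_at the order was turned, with 11.62, 12.14 and 11.76 untreated, 10.76, 11.66 and 10.78 at 1 μM and 11.11, 10.95 and 11.23 at 5 μM. All 3 arrays of 5 μM were below the untreated arrays (-0.74 ± 0.238), and 1 μM was lower by a similar mean (-0.77 ± 0.238) with overlap. Probe sets annotated to the same RNA thus differed in size and sign.

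At 1 μM the MALAT1 means lay closer to the untreated cells than to 5 μM in most probe sets. The exceptions were 223577_x_at, 224558_s_at, 224567_x_at and 226675_s_at, with 5 minus 1 μM at 0.18, -0.05, 0.16 and 0.03 log2 units. The differences of 1 minus 0 μM were between -0.77 and 0.41 log2 units with a median of 0.12. In 223578_x_at (0.41 ± 0.128) and 223577_x_at (0.31 ± 0.0896) all 3 arrays were above the untreated ones. Between 5 and 1 μM, 11 of 12 were positive with a median of 0.63. Probe set 224568_x_at gave 0.95 ± 0.184 and 223940_x_at 0.90 ± 0.182 log2 units. The comparisons of 6 h share arrays and are no independent support of each other. How often the arrays of different doses do not overlap over all probe sets was not counted, so nothing is read from it.

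NEAT1, which holds paraspeckles together, showed no such dose order. The 5 tested probe sets differed between 5 and 0 μM by -0.46 to 0.25 log2 units with a median of 0.08, and the doses overlapped in all 5. Probe set 224565_at gave 10.82, 11.09 and 10.99 untreated, 11.22, 10.99 and 10.99 at 1 μM and 11.25, 10.91 and 10.98 at 5 μM. Untreated array 1 was the lowest and 5 μM array 1 the highest of these 9. Probe set 234989_at gave 7.50, 8.48 and 8.05 untreated, 7.94, 7.56 and 7.57 at 1 μM and 7.76, 7.62 and 7.28 at 5 μM. The same-numbered pairs split for this RNA: in 225239_at 5 minus 0 μM was 0.66 in pair 1 and -0.56 and -0.44 in pairs 2 and 3, the pairs whose untreated arrays had the high CYP26A1 signal. Without these 2 untreated arrays the mean difference of 225239_at was 0.41, in place of -0.11, that of 234989_at was 0.05, in place of -0.46, and the other 3 were at 0.23 to 0.37, in place of 0.08 to 0.25. The NEAT1 differences at 6 h thus turned on which untreated arrays were used.

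TUG1 was lower in the cocaine arrays than in the untreated arrays in 3 of its 4 tested probe sets, by about the same amount at both doses. Both comparisons share the untreated arrays. The hybridization controls (BioD minus Cre) also set both doses apart from these, which cannot be told apart from the exposure. Probe set 222244_s_at gave 11.57, 11.59 and 11.57 log2 units untreated, 11.12, 11.31 and 11.27 at 1 μM and 11.22, 11.24 and 11.24 at 5 μM. All 6 cocaine arrays were below the untreated ones, by -0.34 ± 0.0587 log2 units at 1 μM and -0.34 ± 0.0587 at 5 μM (0.789 of the untreated level at 5 μM). Probe set 228397_at gave 10.03, 10.04 and 10.01 untreated, 9.56, 9.88 and 9.79 at 1 μM and 9.68, 9.65 and 9.71 at 5 μM, again without overlap, and differed by -0.28 ± 0.0791 and -0.35 ± 0.0791. Probe set 212725_s_at differed by -0.25 ± 0.0552 at 1 μM and -0.17 ± 0.0552 at 5 μM, without overlap. The exception at 5 μM was 212337_at, with 10.13, 10.24 and 10.23 at 5 μM, 10.22, 9.97 and 10.13 untreated, and a difference of 0.09 ± 0.0733. At 1 μM it was lower than untreated by -0.17 ± 0.0733, with overlap. Between 5 and 1 μM the 4 probe sets differed by -0.06 to 0.26. The differences of 222244_s_at and 228397_at between 5 and 0 μM were -0.33 and -0.35 without untreated arrays 2 and 3, and those of 212725_s_at and 212337_at were -0.22 and -0.02.

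**Figure D2:**
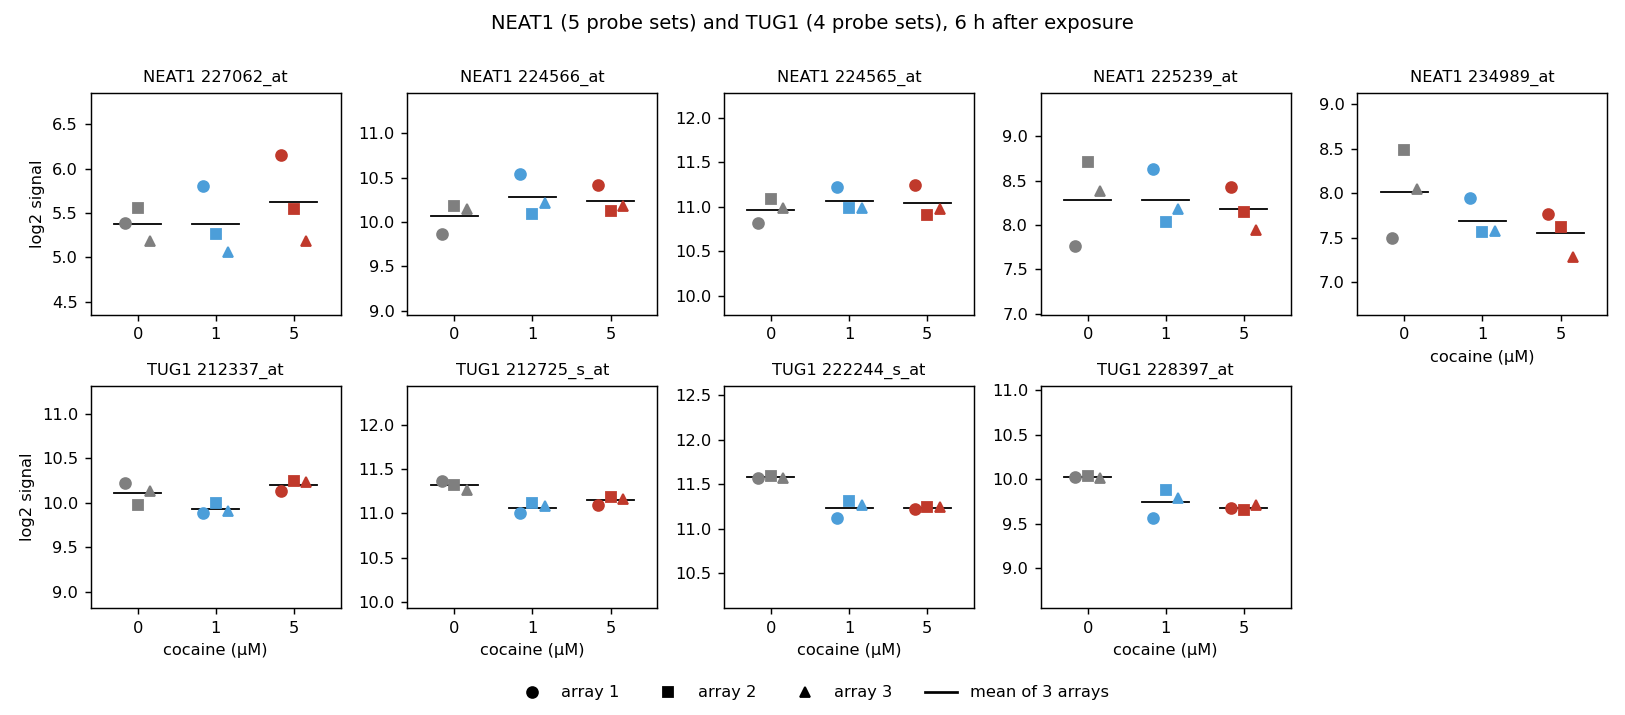
Signal of the 5 NEAT1 and 4 TUG1 probe sets tested at 6 h (log2) against the cocaine dose; symbols are arrays 1 to 3 and lines the mean of 3 arrays. NEAT1 doses overlap in every panel, while TUG1 222244_s_at and 228397_at have all cocaine arrays below the 3 untreated ones.

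MIAT had 3 tested probe sets that differed among themselves. Probe set 237322_at gave 6.09, 6.21 and 5.70 untreated, 6.47, 6.06 and 6.23 at 1 μM and 7.05, 6.48 and 6.31 at 5 μM, and 5 μM was above untreated cells without overlap by 0.62 ± 0.206 log2 units, or 0.40 without 5 μM array 1. The other 2 overlapped, with 0.08 ± 0.142 for 227168_at and -0.15 ± 0.117 for 228658_at, and split by pair as NEAT1 did (0.51, -0.17 and -0.09 for 227168_at). Without untreated arrays 2 and 3 the 3 MIAT differences were 0.52 for 237322_at, 0.41 for 227168_at and 0.07 for 228658_at. MEG3 had 1 tested probe set of 10, 210794_s_at, with 5.56, 5.64 and 5.64 log2 units untreated, 5.55, 5.53 and 5.53 at 1 μM and 5.41, 5.50 and 5.17 at 5 μM. It was lower at 5 μM than untreated without overlap (-0.26 ± 0.0819, or -0.21 without untreated arrays 2 and 3) at a signal close to the filter. The 5 KCNQ1OT1 probe sets were all below the filter at 6 h, between 3.02 and 5.15 log2 units.

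**Figure D3:**
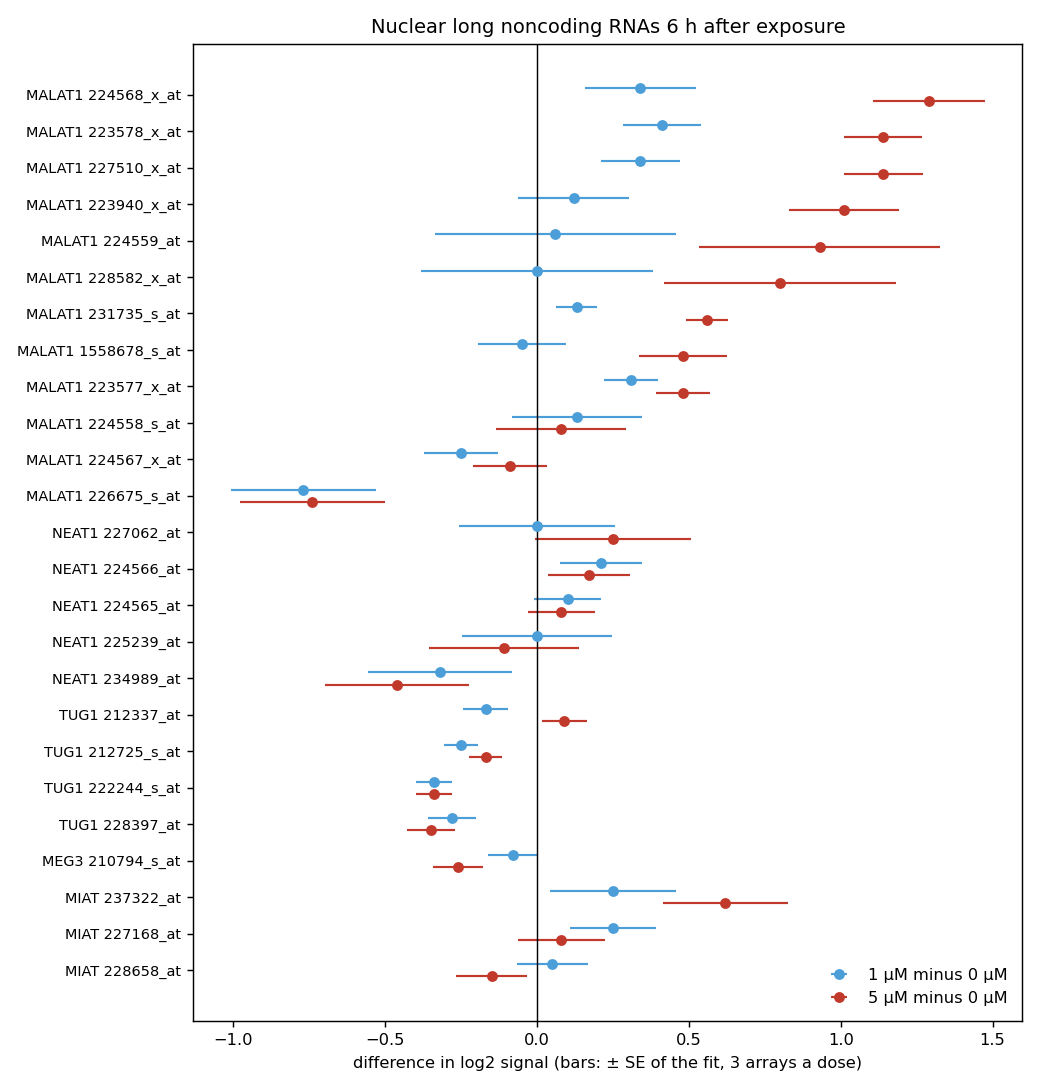
Difference in log2 signal from untreated cells (horizontal axis) of the 25 member probe sets tested at 6 h, for 1 and 5 μM cocaine; points are means over 3 arrays a dose and bars ± SE of the fit. At 5 μM MALAT1 runs from 1.29 to -0.74, NEAT1 from 0.25 to -0.46 and TUG1 from 0.09 to -0.35.

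In limma's fit over the 9 arrays of 6 h with Benjamini-Hochberg adjustment over 22455 probe sets (adjusted P under 0.10), 6 member probe sets, all of MALAT1, were called higher at 5 than at 0 μM and 2, both of TUG1, lower. Of all probe sets tested 1.57% were called higher and 1.42% lower; since this contrast chose the members, nothing is read from the comparison of these shares. The median difference was 0.09 log2 units over the 25 members and -0.02 over all probe sets. Between 1 and 0 μM 0 members were called (0% of all probe sets; 8 members and 3222 probe sets had an unadjusted P under 0.05), and between 5 and 1 μM 0 (0% of all; 7 members and 1448 probe sets unadjusted). The count of 8 moved with the calls over all probe sets when 1 array was left out: it was 0 without 5 μM array 2 (0 of all called) or 5 μM array 3 (1 of all), 4 without 5 μM array 1 (87 of all) and 3 without untreated array 2 (29 of all) or 3 (66 of all), in place of 670 of all.

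Over all probe sets tested, same-numbered arrays paired across doses, but NEAT1 and MIAT at 6 h did not follow this in array 1. Untreated array 1 lay below its dose mean on average (-0.27 for NEAT1 and -0.15 for MIAT). Array 1 lay above it at 1 μM (0.29 and 0.21) and at 5 μM (0.27 and 0.21). With the replicate number as a block, 13 members were called between 5 and 0 μM at 6 h, 8 higher (7 of MALAT1 and MIAT 237322_at) and 5 lower (MALAT1 226675_s_at, 3 of TUG1 and MEG3 210794_s_at), beside 7.75% and 10.9% of all probe sets. Between 1 and 0 μM the blocked fit called 2 MALAT1 probe sets higher and 4 lower (MALAT1 226675_s_at and 3 of TUG1), beside 5.11% and 7.44% of all. Between 5 and 1 μM it called 0 members and 0% of all probe sets. Without the 2 untreated arrays with high CYP26A1 the fit without the block called 0 of all 22455 probe sets (2877 had an unadjusted P under 0.05). The blocked fit then also has 1 untreated array, so only sizes are given from it. Its differences between 5 and 0 μM were 0.28 to 0.72 for NEAT1, 0.22 to 0.85 for MIAT and -0.44 to -0.07 for TUG1. Between 1 and 0 μM they were 0.42 to 0.82 for NEAT1, 0.42 to 0.72 for MIAT and -0.40 to -0.34 for TUG1. Both doses were thus set against the same single untreated array. Without the arrays with high CYP26A1 and without the block, the 4 MALAT1 differences that were widest with all arrays were 1.28 for 224568_x_at, 1.16 for 223578_x_at, 1.18 for 227510_x_at and 1.06 for 223940_x_at. Of the other 8, 224558_s_at moved to 0.52 and 224567_x_at to 0.10, 226675_s_at was at -0.52, and 5 were between 0.57 and 1.15.

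At 24 h the members did not keep the pattern of 6 h, and none was called in any comparison. In the fit over the 9 arrays of 24 h and 24307 probe sets, 0 of 27 members were called between 5 and 0 μM, beside 0.0123% of all probe sets, or 0.00823% with the replicate block (3 members and 1751 probe sets had an unadjusted P under 0.05). Between 1 and 0 μM it was 0 beside 0% with and without the block (0 members and 819 probe sets unadjusted), and between 5 and 1 μM 0 beside 0.00823%, or 0.00411% with the block (0 members and 1488 probe sets unadjusted).

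With the replicate block 12 of the 27 members had an unadjusted P under 0.05 between 5 and 0 μM, 9 of them of MALAT1, and 3769 probe sets in all, with 0 members called; the intervals below are without the block unless stated.

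All 12 MALAT1 probe sets had lower means at 5 μM than untreated, by -0.18 to -0.90 log2 units with a median of -0.50, and all overlapped. The median over all probe sets was 0.00. The 12 probe sets measure 1 RNA on the same arrays and are not 12 independent results: without untreated array 2 the median was -0.26 and 11 of 12 were negative, without untreated array 1 it was -0.82, and without untreated array 3, the one with high CYP26A1, it was -0.46 with 12 of 12 negative. The widest was 224559_at with 9.26, 9.58 and 8.61 untreated, 8.35, 9.22 and 8.43 at 1 μM and 8.17, 8.82 and 7.76 at 5 μM, a difference between 5 and 0 μM of -0.90 (95% interval -1.68 to -0.11, adjusted P = 0.637 by limma; with the block -1.19 to -0.60, adjusted P = 0.14). For 223578_x_at it was -0.83 (-1.56 to -0.10, adjusted P = 0.639; with the block -1.17 to -0.50, adjusted P = 0.146) and for 224568_x_at -0.64 (-1.61 to 0.32, adjusted P = 0.799; with the block -1.26 to -0.02, adjusted P = 0.308). The actin 3′ to 5′ difference was also higher in 5 μM than in untreated arrays at this time, without overlap, and its part in these values was not tested.

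TUG1 differed between 5 and 0 μM at 24 h by -0.01 to 0.20 log2 units. For 222244_s_at the values were 11.31, 11.49 and 11.68 untreated, 11.55, 11.56 and 11.58 at 1 μM and 11.64, 11.78 and 11.67 at 5 μM, and the difference was 0.20 (0.00 to 0.40, adjusted P = 0.701). With the block the interval of 222244_s_at was 0.02 to 0.38 (limma adjusted P = 0.285). For 228397_at the difference was -0.01 (-0.23 to 0.21, adjusted P = 0.994). NEAT1 gave -0.46 (-1.08 to 0.16, adjusted P = 0.766) for 224565_at and 0.08 (-1.39 to 1.56, adjusted P = 0.993) for 234989_at. With the block these NEAT1 intervals were -0.77 to -0.14 (limma adjusted P = 0.215) and -0.68 to 0.85 (adjusted P = 0.924). MIAT gave -0.55 (-1.28 to 0.17, adjusted P = 0.762) for 227168_at and 0.13 (-0.22 to 0.49, adjusted P = 0.92) for 237322_at. With the block these MIAT intervals were -0.97 to -0.14 (limma adjusted P = 0.235) and -0.07 to 0.34 (adjusted P = 0.499). MEG3 210794_s_at gave -0.08 (-0.34 to 0.18) and the 2 KCNQ1OT1 probe sets 0.07 (-0.14 to 0.27) for 237249_at and 0.05 (-0.12 to 0.22) for 243435_at. Between 1 and 0 μM all 27 intervals held 0 without the block, and with it all but those of MALAT1 224559_at (-0.78 to -0.19, adjusted P = 0.516) and 223578_x_at (-0.69 to -0.02, adjusted P = 0.566).

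**Figure D4:**
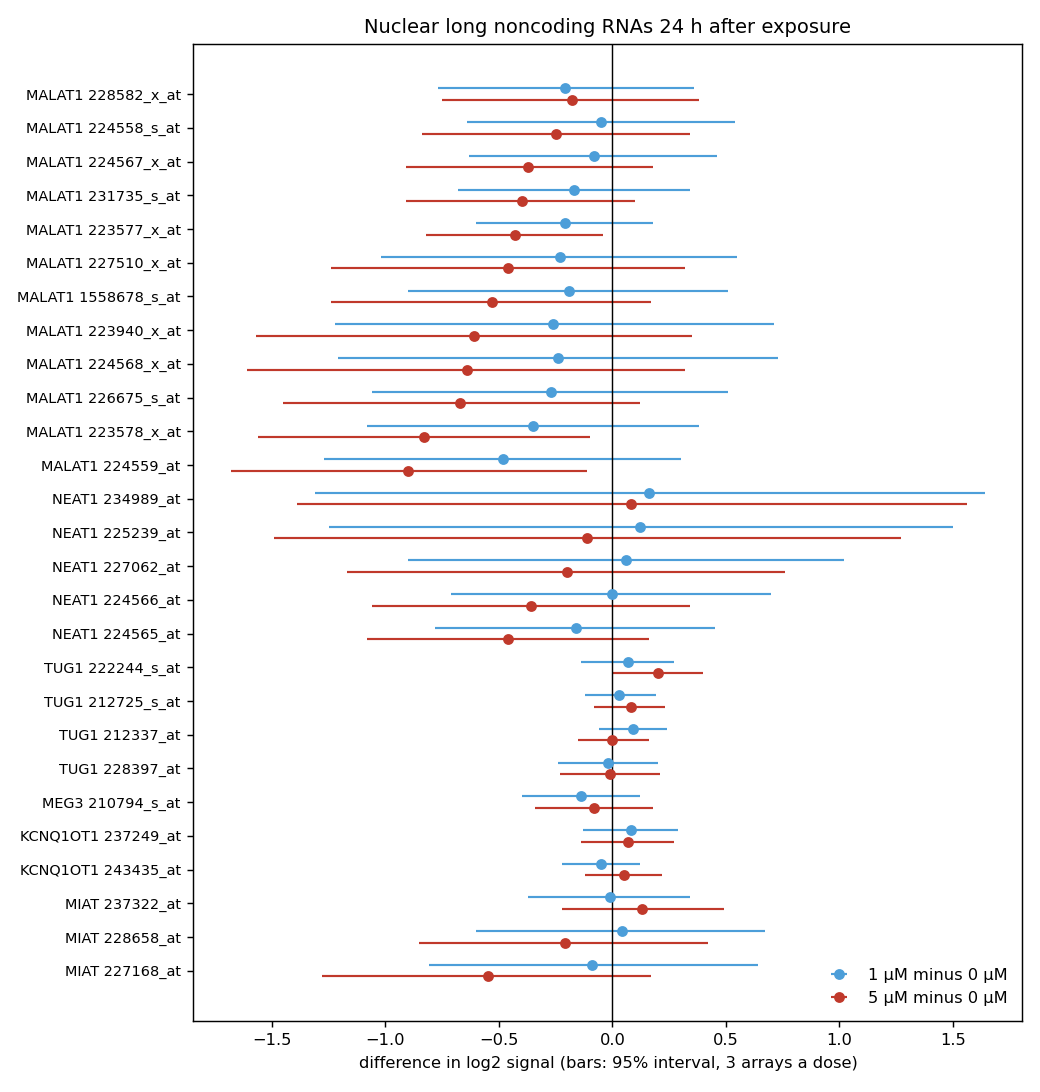
Difference in log2 signal from untreated cells (horizontal axis) of the 27 member probe sets tested at 24 h, for 1 and 5 μM cocaine; points are means over 3 arrays a dose and bars the 95% interval. All 12 MALAT1 means lie below 0 at 5 μM and TUG1 lies between -0.01 and 0.20.

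At 24 h the arrays of one number deviated together in several members. Probe set 223940_x_at of MALAT1 gave 11.05, 12.61 and 12.02 log2 units untreated, 11.57, 12.26 and 11.09 at 1 μM and 11.23, 11.74 and 10.88 at 5 μM. NEAT1 234989_at gave 6.56, 8.84 and 7.61 untreated, 7.40, 8.73 and 7.37 at 1 μM and 7.83, 8.63 and 6.80 at 5 μM. Array 2 was the highest of each dose in both. Over the 12 MALAT1 probe sets array 2 lay above the mean of its dose by 0.48, 0.37 and 0.39 log2 units on average at 0, 1 and 5 μM, with 12 of 12 above it each time, and over the 5 NEAT1 probe sets by 0.82, 0.57 and 0.62, with 5 of 5 above. For MIAT the average was 0.15, 0.21 and 0.27 with 2 of 3 above each time, and for TUG1 -0.02, -0.01 and 0.05.

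After removal of the dose means, the Pearson correlation over the 9 arrays of 24 h had a median of 0.89 over 60 pairs of a MALAT1 and a NEAT1 probe set, of 0.80 between MALAT1 probe sets, 0.88 between NEAT1 and MIAT and 0.38 between MALAT1 and TUG1. MIAT 237322_at was apart, since MIAT probe sets correlated with each other between -0.85 and 0.98. At 6 h the medians were 0.14 for MALAT1 with NEAT1, 0.37 between MALAT1 probe sets, 0.86 for NEAT1 with MIAT and -0.60 for NEAT1 with TUG1. These correlations describe 9 arrays that share 3 numbers, and no P-value is given.

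**Figure D5:**
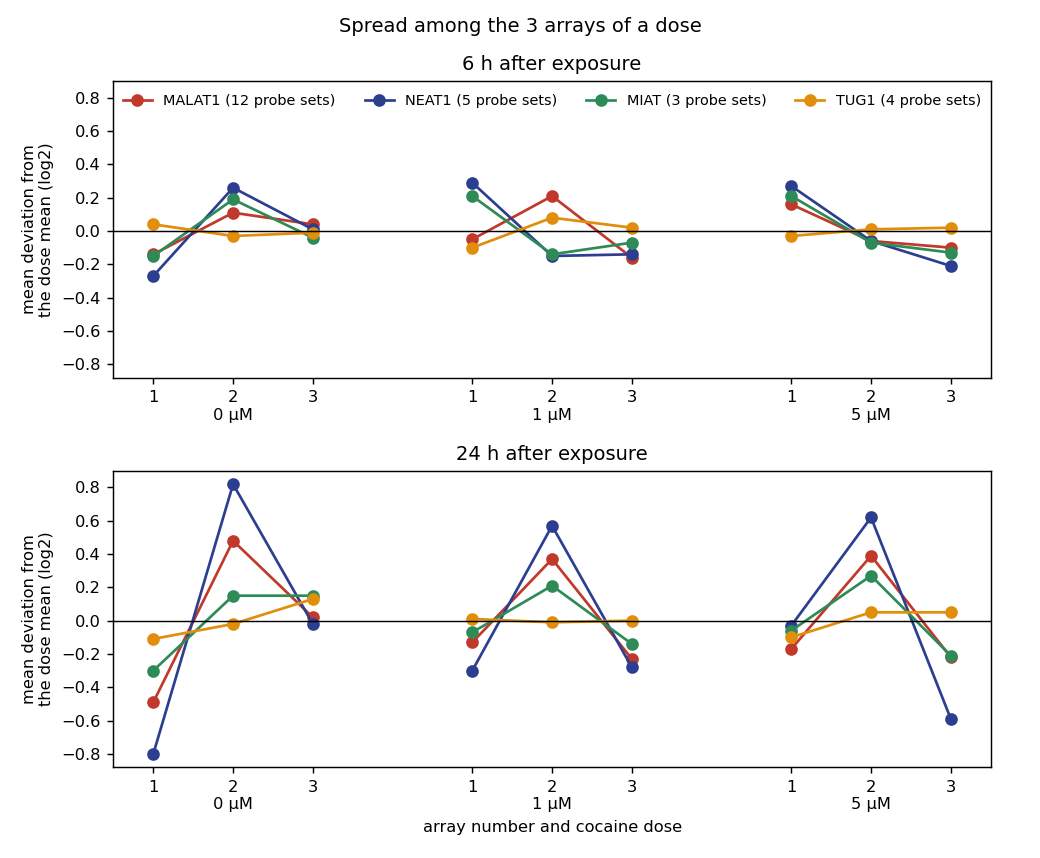
Mean deviation of each array from the mean of its dose (log2, vertical axis), averaged over the tested probe sets of MALAT1, NEAT1, MIAT and TUG1, by array number and dose, at 6 h (top) and 24 h (bottom). At 24 h array 2 is the highest of each dose for MALAT1 (0.48, 0.37 and 0.39) and NEAT1 (0.82, 0.57 and 0.62), while TUG1 lies between -0.11 and 0.13.

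The proteins that work with these RNAs were described in lists, where a gene counts if any of its probe sets was called. The lists were chosen with earlier results of these data known. The contrast of 5 and 0 μM at 6 h had also chosen the members. Its calls in the lists are therefore a description and no independent support. Of 23 measured nuclear speckle proteins, 8 had a probe set called higher at 5 than at 0 μM at 6 h and none lower, with 9 of 79 probe sets called and a median over the list of 0.00. Over all 11943 genes with a tested probe set of 1 symbol, counted the same way, 2.59% were higher and 2.47% lower (12% and 17.7% with the block). The most significant were ARGLU1, a splicing and transcription cofactor (0.76 ± 0.125 log2 units, limma adjusted P = 0.0486), SON, an organizer of the speckle core (0.48 ± 0.084, adjusted P = 0.0552), PRPF6, a protein of the spliceosomal tri-snRNP (0.72 ± 0.126, adjusted P = 0.0561), and BCLAF1 (0.55 ± 0.0993, adjusted P = 0.0584). Each of these values is that of 1 called probe set, and most probe sets of these genes were not called. SRRM2, another speckle core protein, was called through 208610_s_at (0.60 ± 0.116, limma adjusted P = 0.0638), while its probe set 207435_s_at gave -0.01 ± 0.0692. A gene with more probe sets is counted more easily, and this list had 79 probe sets for 23 genes. Of all probe sets tested 1.57% were called higher. With the replicate block 11 speckle genes were called higher and 3 lower, and without the untreated arrays with high CYP26A1 0.

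Of 16 paraspeckle proteins 1 was called higher, SFPQ, through 226898_s_at (0.80 ± 0.144, adjusted P = 0.0584), whereas its other 4 probe sets gave -0.22 to 0.06. NONO gave -0.07 to -0.08 over 3 probe sets and PSPC1 0.02 to 0.17 over 4. With the block 3 paraspeckle genes were called higher and 4 lower. Of 17 genes of MALAT1 and NEAT1 end processing and stability 1 was called lower, WTAP, a subunit of the RNA adenosine methyltransferase (-0.38 ± 0.0883, limma adjusted P = 0.0903). That was 1 called probe set of 33 in this list. The block gave 1 gene higher and 2 lower. Of 12 Polycomb and G9a partners 0 were called, and 1 higher and 3 lower with the block. For 15 other long noncoding RNAs the counts were 0, and 1 higher and 2 lower with the block. Between 1 and 0 μM at 6 h and in all 3 comparisons of 24 h no gene of these lists was called in the fit without the block. With the block, between 1 and 0 μM at 6 h, 6 speckle genes were higher and 2 lower, 1 paraspeckle gene higher and 1 lower, 2 end processing genes higher and 1 lower, 1 Polycomb or G9a partner higher and 3 lower, 1 neighbour higher and 1 lower, and 1 other long noncoding RNA lower, beside 8.49% of all genes higher and 11.9% lower.

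Of 21 measured genes beside the members on the chromosome 2 were called lower between 5 and 0 μM at 6 h. Each was called through 1 probe set. They were FAM89B near MALAT1 (-0.31 ± 0.0691, limma adjusted P = 0.0845) and CDKN1C, the gene that KCNQ1OT1 silences in cis. CDKN1C was called through 213348_at (-0.33 ± 0.0812, adjusted P = 0.0996), and its other 3 probe sets gave -0.15 to -0.24. The block gave 1 higher and 3 lower. The median difference over probe sets was -0.05 for these neighbours, -0.02 for the paraspeckle and end processing lists, 0.00 for the Polycomb and G9a list and 0.01 for the other long noncoding RNAs, beside -0.02 over all. At 24 h the 4 CDKN1C probe sets gave -0.03 to 0.12 log2 units between 5 and 0 μM. DLK1, the imprinted partner of MEG3, gave 0.18 ± 1.05 at 6 h and 0.26 ± 1.04 at 24 h, with an error far above those of the members. The 4 retinoic acid response genes were called lower at 5 μM only with the block (2 of them at 1 μM), with a list median of -2.46 at 5 μM.

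The probe sets most alike in pattern were taken from 21320 by Pearson correlation over the 18 arrays after each time was centred on its mean, as a description. For MALAT1 223578_x_at they belonged to ACBD3, a Golgi protein (r = 0.915), TIA1, an RNA-binding protein of stress granules (0.901), and MORF4L2, a chromatin protein (0.889). For MALAT1 224567_x_at they were MORF4L2 through another probe set (0.881), PABPC1L (0.868) and YJU2B (0.867). NEAT1 224565_at was closest to LMNTD2-AS1 (0.929), PABPC1L (0.88) and MAP4K4 (0.873), and MIAT 227168_at to LMNTD2-AS1 (0.903), ZNF224 (0.884) and TNFRSF25 (0.884). For NEAT1 these were set by the 24 h arrays, with r for LMNTD2-AS1 of 0.98 at 24 h and 0.485 at 6 h. TUG1 222244_s_at was closest to CKAP5, a microtubule protein (0.925), PPP6R3, a phosphatase subunit (0.912), and SMARCC2, a subunit of the BAF chromatin remodeller (0.911). MEG3 210794_s_at was closest to NPIPB15 (0.895), and KCNQ1OT1 243435_at reached no more than 0.731, with NTN5.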

How the data were processed

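The deposited table holds 1 log2 signal per probe set and array, made by the authors with RMA in affy, according to the methods separately for the 9 arrays of each time, so levels were compared only within a time; the submitters' processing notes also name limma, and versions are not given in the sources used here. Values were used as deposited. Of 54675 probe sets, 41097 had 1 gene symbol in the platform annotation (41043 matched to RefSeq), 1801 several and 11777 none.

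After the study's methods, which filter on signal at log2(40) without saying how over arrays, probe sets with a symbol and a mean over 9 arrays above it were fitted (the number kept differs from the study's) with limma 3.58.1 in R 4.3.3 (lmFit and eBayes, 3 dose means over 9 arrays a time), with Benjamini-Hochberg adjustment over all probe sets kept and an adjusted p under 0.10 as the threshold. Intervals cover 95%. The scripts were tested on simulated data. Motifs were searched in RefSeq promoter windows, and figures drawn with Matplotlib. Members, lists and named genes were chosen with earlier results of these data known. Named were all member probe sets, up to 4 called genes of each list with the smallest p, NONO, SFPQ, PSPC1, SRRM2, METTL16, CDKN1C and DLK1 where measured (METTL16 had no probe set tested here; a further gene of the rule is not reported here), and the 3 probe sets most alike in pattern to a member.

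Whether the replicate numbers of the labels pair the arrays was checked from deviations from the dose means: same-numbered arrays correlated at 0.377 to 0.768 at 6 h and 0.424 to 0.733 at 24 h (9 pairs each), differently numbered ones at -0.632 to 0.0711 and -0.575 to 0.165 (18 pairs each). The numbers were therefore read as pairs, and the blocked fit is given beside the counts and beside part of the 24 h intervals. Whether the pools came from separate cultures is not stated beyond the label of biological replicates, so p-values measure the spread between these pools. Alternatives were the replicate block, the signal filter, the arrays in the fit, an intensity trend, array weights, centring, the threshold, leaving out each array, and leaving out the arrays with a strong retinoic acid response; the last together with the block was added after seeing the data. With 3 arrays a dose the number of arrays limits the precision.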

Additional observations from a re-analysis of the deposited data

Results flagged for a closer look

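Between 5 and 0 μM cocaine, 5 MALAT1 probe sets were higher in all 3 same-numbered pairs of arrays at 6 h and lower in all 3 at 24 h. The mean differences (5 minus 0 μM, log2) were 0.48 at 6 h and -0.53 at 24 h for 1558678_s_at, 0.48 and -0.43 for 223577_x_at, 1.14 and -0.83 for 223578_x_at, 0.93 and -0.90 for 224559_at, and 0.56 and -0.40 for 231735_s_at. For 223577_x_at the same held between 1 and 0 μM, with 0.31 at 6 h and -0.21 at 24 h. The difference between the times was not tested, the 6 h values belong to the contrast from which the members were chosen, and no 24 h value passed the threshold. How many of all probe sets turned in this way was not counted. The actin 3′ to 5′ difference turned as well. At 6 h it was lower in 5 μM than in untreated arrays (0.493 to 0.539 against 0.548 to 1.12). At 24 h it was higher (0.686 to 1.03 against 0.488 to 0.654). Its part in these values was not tested.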

How the results depend on the processing

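Counts of called members at 24 h were 0 under every alternative run. At 6 h the count between 5 and 0 μM was 8 and became 13 with the replicate block, 4 at an adjusted p under 0.05 and 0 without the arrays with a strong retinoic acid response. It was 0 to 9 when 1 array was left out (0 without 5 μM array 2 or 3, where 0 and 1 of all probe sets were called, and 9 without untreated array 1, where 2432 were). Between 1 and 0 μM the count was 0 and became 6 with the replicate block, 2 with array weights, 11 without the arrays with a strong retinoic acid response together with the block (1931 of all), and 0 to 1 when 1 array was left out. Between 5 and 1 μM it was 0. In both comparisons it rose without the arrays with a strong retinoic acid response together with the block. That fit has 1 untreated array, so its counts are not given. Of all probe sets, 670 were called between 5 and 0 μM at 6 h, 4184 with the block, 3309 with array weights and 131 with only the 6 arrays compared; between 1 and 0 μM it was 0, 2818 with the block and 1009 with array weights. Leaving out the retinoic acid arrays removes 2 of 3 untreated arrays at 6 h, so the single one left is assumed to vary like the other groups. Over single probe sets 1002 values kept their call or stayed within the spread between arrays and 48 moved beyond it. Between 5 and 0 μM at 6 h, NEAT1 225239_at turned from -0.11 to 0.71 without the retinoic acid arrays together with the block. In that comparison 19 of 470 values had the opposite sign to the value reported (9 of 25 probe sets, none called with all arrays). Between 1 and 0 μM 14 of 470 did so (8 of 25). At 24 h 2 of 112 did: MEG3 210794_s_at between 5 and 0 μM was 0.01 without 5 μM array 3 (-0.08 with all arrays; -0.20 to 0.01 over the arrays left out), and KCNQ1OT1 243435_at was -0.03 without 5 μM array 1 (0.05 with all arrays; -0.03 to 0.10); the cause was not tested. Probe sets near the filter, such as that of MEG3 and those of KCNQ1OT1, are limited by their signal over background.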
